A study of Oryza sativa with 4 samples.

Results

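Histone genes of rice were described in RNA bound to polysomes, that is, in the mRNA carried by translating ribosomes. The histones were taken as the annotated transcripts whose gene text names a core histone or a histone H1, H2, H3 or H4, without the enzymes that methylate, acetylate or deacetylate histones. This gave 53 transcripts of 49 loci among 57629 annotated transcripts. By their annotation text 3 of them are H1, 2 are H2A, 12 are H3 and 36 are core histones of which the text does not say whether they are H2A, H2B, H3 or H4. The rule leaves out 23 transcripts whose text speaks of a histone-like transcription factor or an archaeal histone-like protein, and 4 of single myb histone genes.

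The rice genotypes were IR29, which is sensitive to salt, and Pok (Pokkali), which tolerates it. Whole seedlings 24 days old, grown in Yoshida nutrient medium, were kept as controls or were given 150 mM NaCl for 24 h. Polysomes with more than 2 ribosomes were collected from sucrose gradients, and poly(A) RNA was sequenced from them. There was 1 library for each of IR29 control, IR29 salt, Pok control and Pok salt. RNA of 3 biological replicates was pooled, which the methods state for total RNA and which was taken to hold here. An effect of genotype or of salt therefore cannot be told apart from that of the single libraries compared. Every comparison below stands without a spread, interval or p-value.

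Histones package DNA in the nucleus. H2A, H2B, H3 and H4 form the spool of the nucleosome around which DNA is wound, and the linker histone H1 binds where DNA enters and leaves it. Most core histones are made when DNA is copied in S phase, while the variant H3.3 is placed into chromatin outside of replication as well. In plants most histone mRNAs carry a poly(A) tail, unlike those of animals, and each histone is encoded by a family of genes with nearly the same coding sequence. Reads from such copies can be split among them in more than one way, so the sums over a type rest on firmer ground than the level of any single copy.

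Values are FPKM, fragments scaled to transcript length and to the mapped fragments of the library, which can be compared between transcripts because they are per length. Counts were not analysed here, so the depth behind a value is unknown. A transcript was considered in a comparison with at least 5 FPKM in one of its libraries, and it is said to have risen or fallen where the larger value was at least 2-fold the smaller. Where 4 values are given in a row, they are in the order IR29 control, IR29 salt, Pok control, Pok salt. Log2 ratios are of FPKM plus 1, which understates the change of low transcripts. The 7424 annotated transcripts that reached 5 FPKM in each library had a median log2 ratio of 0.26 for salt over control in IR29, 0.06 in Pok, 0.33 for Pok control over IR29 control and 0.12 for Pok salt over IR29 salt. Whole seedlings hold both leaf and root. All 9 genes of a root-expressed list and 14 of 17 transcripts of chlorophyll a/b binding proteins had a mean of at least 1 FPKM. Some of the root-expressed genes were picked by the study on these libraries, so their level is no check of root content.

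Annotated histone transcripts made up less of the polysomal RNA after salt in both genotypes, and more of it in Pok than in IR29. Their summed level was 2244 FPKM without and 1506 FPKM with salt in IR29, and 3678 and 2063 FPKM in Pok. Both salt libraries were thus below both controls, and the control library of Pok stood above the other libraries. The sum changed with salt by -32.9% in IR29 and by -43.9% in Pok, while the sum over all annotated transcripts was 10.0% and 5.87% higher. As a share of the summed FPKM of annotated transcripts the histones took 0.948% without and 0.578% with salt in IR29, and 1.36% without and 0.721% with salt in Pok. In whole seedlings, fewer cells that make histones and less histone mRNA per cell cannot be told apart. Total RNA was not compared here, so the level of histone mRNA and its loading onto polysomes cannot be told apart either.

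The types did not share this pattern. The core histones without a given type summed to 1700 FPKM without and 1061 FPKM with salt in IR29, and 2870 and 1513 FPKM in Pok. H3 followed the same order with 458, 326, 664 and 394 FPKM. H1 did not, with 85.8, 119, 144 and 156 FPKM, so that both salt libraries were above their own control. In Pok its sum was 8.37% higher, near the 5.87% of all annotated transcripts. The increase of the type came from Os06g04020.1, since Os04g18090.1, the other H1 above 5 FPKM, was lower with salt in both genotypes. The annotated H2A transcripts were nearly absent, with sums from 0.0236 to 0.355 FPKM, and the text of the core histones does not say how many of them are H2A.

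**Figure D1:**
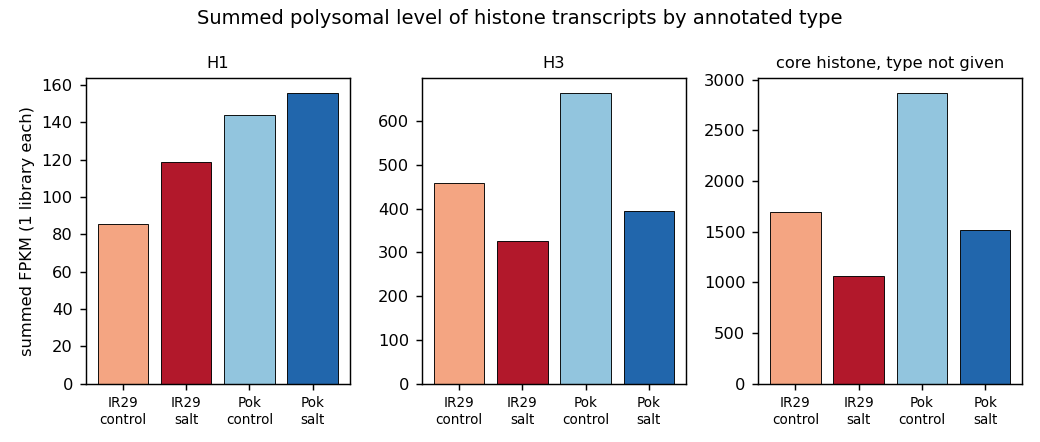
Summed polysomal level of the annotated histone transcripts by type, in FPKM on the vertical axis from 0, with 1 bar for each of the 4 libraries and a separate scale for each type. Core histones and H3 were lower in each salt library than in its control, and H1 was higher (85.8 and 119 FPKM in IR29, 144 and 156 FPKM in Pok). The H1 sum was 8.37% higher with salt in Pok, where the sum of all annotated transcripts was 5.87% higher.

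Of the 53 transcripts 36, each of its own locus, reached 5 FPKM in at least one library. The other 17 stayed at or below 3.69 FPKM, and 2 of these, Os05g38760.1 and Os08g38300.2, were listed at 0 in all libraries. Among the 36 the median level was 52.3 FPKM without and 34.8 FPKM with salt in IR29, and 84.2 and 51.1 FPKM in Pok. Transcripts at 100 FPKM or more numbered 12, 2, 16 and 6 in the same order. Pok control was the highest library for 26 of the 36 and IR29 salt the lowest for 26, against 30.4% and 22.8% of all annotated transcripts at 5 FPKM or more in any library.

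**Figure D2:**
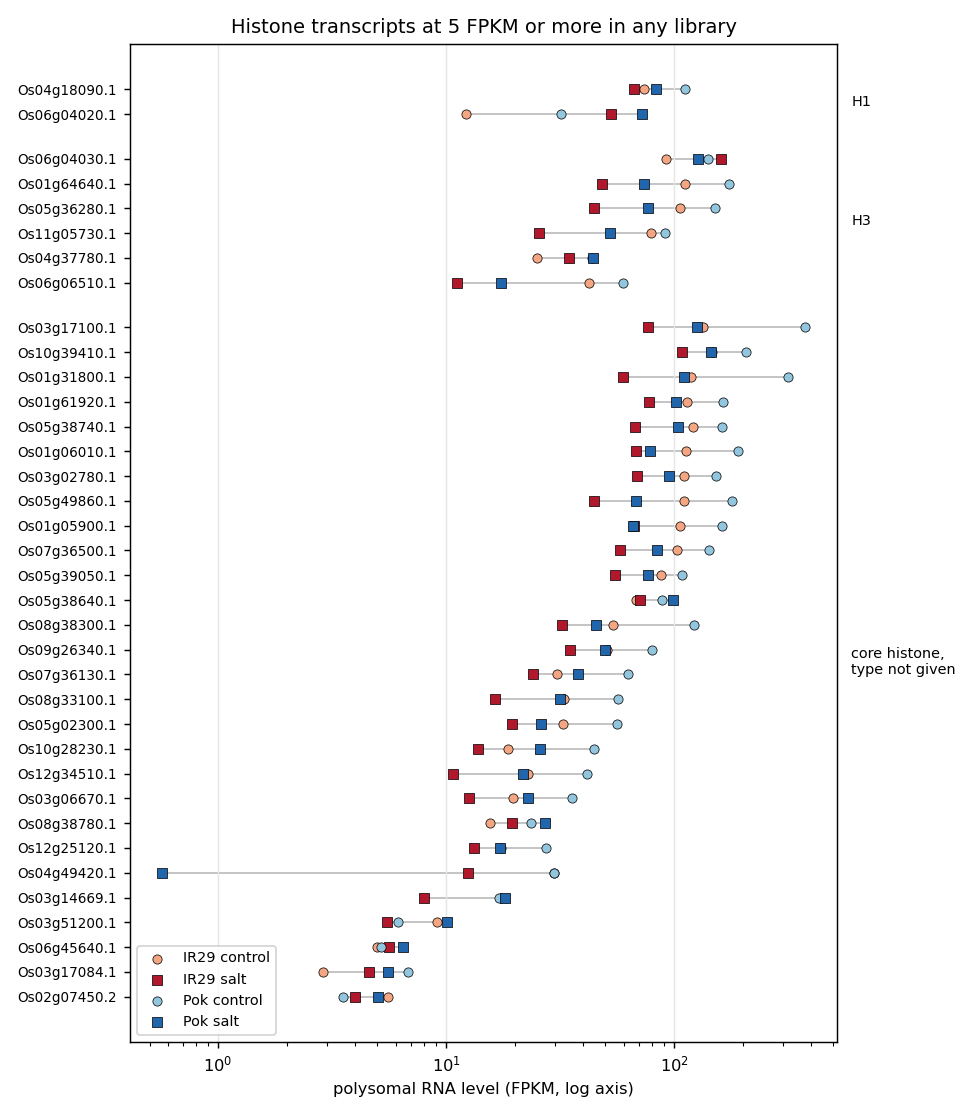
Polysomal level of the 36 histone transcripts that reached 5 FPKM, in FPKM on a log axis, grouped by annotated type and ordered by mean level. Each point is 1 library (circles control, squares salt; red IR29, blue Pok) and the grey line spans the 4 libraries. For most core histones Pok control lies farthest right and IR29 salt farthest left, and Os04g49420.1 has a single low point at 0.568 FPKM in Pok salt.

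In IR29, the comparison of salt with control asked how the polysomal RNA of the sensitive genotype responds. Of 35 histone transcripts considered 9 fell and 1 rose. The 9 are 25.7% of those considered, where 5.96% of all annotated transcripts considered fell and 19.1% rose. Centring on the median shift gave 14 that fell and upper-quartile scaling gave 17. A ratio below 1 of any size was seen for 29 of the 35, which is 82.9% against 30.7% of all. The median log2 ratio of the 37 histones with a mean of at least 1 FPKM was -0.67, against 0.22 over all annotated transcripts with that mean.

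In Pok, the same comparison was made in the tolerant genotype. Here 10 of 36 fell and 1 rose. The 10 are 27.8%, where 5.61% of all annotated transcripts fell and 15.7% rose. Any decrease was seen for 28 of the 36, which is 77.8% against 42.4% of all. The median was -0.67, as in IR29, against 0.08 over all annotated transcripts. Relative to the median shift of the 7424 transcripts at 5 FPKM or more in each library, the median of the histones was -0.93 in IR29 and -0.74 in Pok.

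Both salt comparisons share no library. Of the 36 histones 26 were lower with salt in both genotypes, 5 were higher in both and 5 went in opposite directions, counting ratios of any size. Among the 26 the decrease was the larger one in Pok for 17 and in IR29 for 9, by ratios that were not centred. The median shift of the 7424 transcripts was 0.26 in IR29 and 0.06 in Pok. Relative to it the median histone decrease was larger in IR29, at -0.93 against -0.74 in Pok, so this count depends on the scaling. Those that fell at least 2-fold numbered 4 in both genotypes, 5 in IR29 alone and 6 in Pok alone, and whether the genotypes differ for these was not tested. The counts over both genotypes were not made for all annotated transcripts, so whether these overlaps are unusual is not known. Several lay close to the limit: Os01g31800.1 was 1.98-fold lower in IR29 and was not counted there, and Os08g33100.1 was 2.01-fold lower and was counted. Across the 36 the log2 ratios of both genotypes had a Pearson r of 0.629, and 0.630 without Os06g04020.1 and Os04g49420.1, against 0.460 over 12578 annotated transcripts. This is a description across transcripts, which are not replicates and of which near-identical copies share reads.

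**Figure D3:**
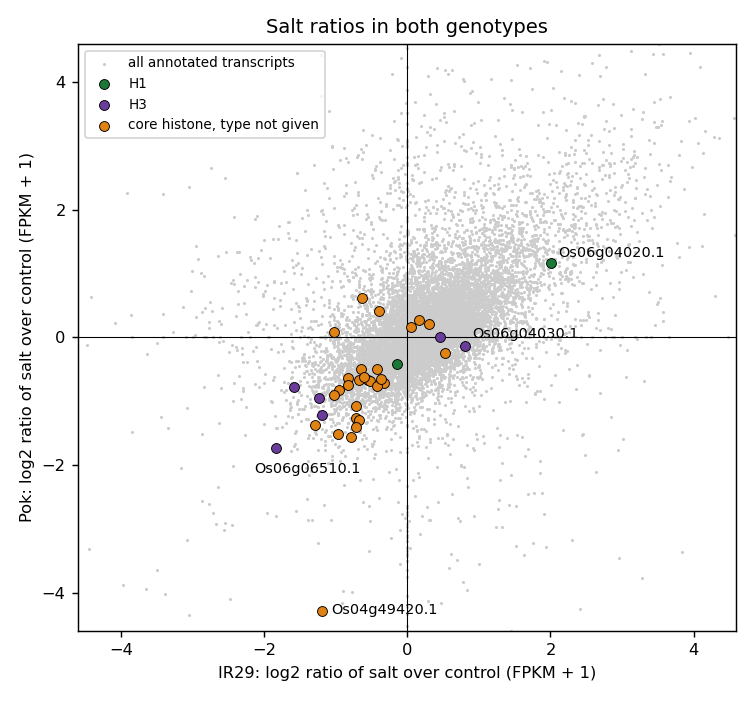
Log2 ratio of salt over control (FPKM plus 1) in IR29 on the horizontal axis and in Pok on the vertical axis. Grey points are all annotated transcripts at 5 FPKM or more in any library (64 of 12578 lie outside the axes) and coloured points are the 36 histones by type. Most histones lie at the lower left, H1 Os06g04020.1 lies in the upper right at 2.01 and 1.16, and Os04g49420.1 is the lowest in Pok at -4.29.

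Markers of leaf and root moved with the same libraries. Of the chlorophyll a/b binding proteins 11 of 13 considered fell with salt in IR29 and 1 of 14 in Pok, and none rose, with summed levels of 2590 FPKM without and 913 FPKM with salt in IR29, and 4227 and 2862 FPKM in Pok. Of the root-expressed genes 5 of 7 fell in IR29 and 5 of 8 rose in Pok, with summed levels of 229, 118, 237 and 386 FPKM. The root list moved in opposite directions in the genotypes, where the histone sum was lower in both. Part of this was set by the choice of its genes. The paper lists the ammonium transporter Os02g40730 and the nicotianamine synthases Os03g19427 and Os03g19420 among genes with opposite salt responses in these genotypes. There the decreases in IR29 are of total RNA, with no call in its polysomal RNA, and the increases in Pok are of polysomal RNA. It also names the aquaporin Os02g51110 as lower in IR29. The list is thus no independent marker of root content in the salt comparisons. The part of leaf and root content in the histone values was not tested.

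The linker histone H1 gave the histone transcript with the largest increase. Os06g04020.1 (chromosome 6) was at 12.3 FPKM without and 52.6 FPKM with salt in IR29, and 31.9 and 72.6 FPKM in Pok. Both salt libraries were above both controls. It rose 4.29-fold in IR29 and 2.28-fold in Pok, and it was the only histone past the limit upwards in either genotype. With upper-quartile scaling of the libraries its increase in Pok was short of the limit, and with a minimum of 1 FPKM 3 histones rose in Pok. A splice variant assembled at the same locus, which the annotation does not hold, was at 1.47, 12.4, 5.53 and 21.5 FPKM and thus had the same order of libraries. The assembled locus, chr6:1422798-1642801 in the rice genome MSU v6.1, spans 220 kb and joins 25 annotated loci, so its span says nothing of the length of this gene.

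The other H1 with a level above 5 FPKM did not move in this way. Os04g18090.1 (chr4:9984198-9985211) was at 73.5 FPKM without and 66.4 FPKM with salt in IR29, and 112 and 83.0 FPKM in Pok. Its salt log2 ratios were -0.15 and -0.42, short of the limit. It was the more abundant of both genes in every library. The annotated form of Os08g33190.1, a linker histone H1 and H5 family protein, was at 0 in both IR29 libraries and below 0.2 FPKM in Pok. A splice variant of it held the signal instead, with 15.1, 22.2, 32.3 and 37.7 FPKM, again with each salt library above its control.

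Among the H3 genes 4 of 6 considered fell in IR29 and 2 of 6 in Pok, and none rose. Of all annotated transcripts 5.96% fell and 19.1% rose in IR29, and 5.61% fell and 15.7% rose in Pok. With 6 transcripts the lack of a rise says little. The type had a median log2 ratio of -1.21 in IR29 and -0.87 in Pok. Os06g06510.1 was at 42.4 FPKM without and 11.1 FPKM with salt in IR29, and 59.9 and 17.3 FPKM in Pok. It fell 3.80-fold in IR29 and 3.46-fold in Pok, the largest decrease of any histone in IR29. In the same region an assembled transcript antisense to the H3 gene Os06g06460.1 had 56.1, 15.4, 63.5 and 25.1 FPKM. The protocol does not state that strand was kept, so reads of a gene and of its antisense partner cannot be told apart here.

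Os01g64640.1 (chr1:37512703-37513521) was at 111 FPKM without and 48.0 FPKM with salt in IR29, and 174 and 74.1 FPKM in Pok. It fell 2.31-fold and 2.34-fold, nearly the same step from different starting levels. Os05g36280.1 (chr5:21436860-21437620) was at 106, 44.5, 151 and 77.1 FPKM in the same order and fell 2.38-fold in IR29, while its 1.95-fold difference in Pok was just short of the limit. Os11g05730.1 (chr11:2621566-2622187) was at 78.8, 25.6, 91.0 and 52.4 FPKM. It fell 3.08-fold in IR29 and was 1.73-fold lower in Pok.

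A pair of H3 genes did not follow the rest of their type. Os06g04030.1 (chr6:1644415-1645327), whose assembled locus begins 1.61 kb from that of the H1 gene Os06g04020.1, was at 91.7 FPKM without and 161 FPKM with salt in IR29, and 140 and 128 FPKM in Pok. It was the highest of all histones in the IR29 salt library, although its log2 ratios of 0.80 and -0.13 were short of the limit. Os04g37780.1, annotated as H3.3a (chr4:22276163-22278939), was at 25.0, 34.6, 43.5 and 43.9 FPKM, with log2 ratios of 0.45 in IR29 and 0.01 in Pok. Beside it 2 assembled transcripts on the other strand were listed at 1082, 1034, 1345 and 1251 FPKM and at 135, 96.4, 96.9 and 88.0 FPKM, all above the gene itself. The remaining 6 annotated H3 transcripts stayed under 5 FPKM, the highest being Os04g34240.1 with 2.66 FPKM in Pok control.

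The core histones without a given type hold most of the summed level of the annotated histone transcripts. Of 27 considered in IR29 5 fell, and of 28 considered in Pok 8 fell, with none rising in either. Over all annotated transcripts 5.96% fell and 19.1% rose in IR29, and 5.61% fell and 15.7% rose in Pok. The most abundant was Os03g17100.1 (chr3:9497836-9498762), at 134 FPKM without and 76.9 FPKM with salt in IR29, and 375 and 126 FPKM in Pok. Its value in Pok control was the highest of any histone in any library. It fell 2.97-fold in Pok, to near the level of IR29 control, and was 1.74-fold lower with salt in IR29.

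Os01g31800.1 (chr1:17419386-17420245) had nearly the same profile, at 118, 59.8, 317 and 111 FPKM, and fell 2.86-fold in Pok. Os08g38300.1 (chr8:24258606-24259642) was at 53.8, 32.3, 122 and 45.6 FPKM and fell 2.68-fold in Pok. For these 3 genes Pok control stood apart and the other libraries lay closer together. Os10g39410.1 (chr10:20947734-20948382), second in mean level, was by contrast among the most even, at 146, 108, 206 and 145 FPKM with log2 ratios of -0.43 in IR29 and -0.50 in Pok.

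On chromosome 1 the assembled loci of Os01g05900.1 and Os01g06010.1 lie 33.5 kb apart. Os01g05900.1 was at 107 FPKM without and 66.5 FPKM with salt in IR29, and 163 and 65.9 FPKM in Pok, and Os01g06010.1 was at 112, 68.0, 191 and 78.7 FPKM. Both fell in Pok, 2.47-fold and 2.43-fold, and between the salt libraries they differed by 1.01-fold and 1.16-fold. Os05g49860.1 (chr5:28549328-28550153) was at 110, 44.6, 179 and 68.1 FPKM and fell in both genotypes, 2.47-fold and 2.62-fold.

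Lower in level were Os08g33100.1, at 32.9, 16.4, 56.5 and 31.5 FPKM, and Os12g34510.1, at 22.8, 10.7, 41.5 and 21.8 FPKM. Both fell in IR29 and were 1.79-fold and 1.90-fold lower in Pok, short of the limit. Os05g02300.1 was at 32.5, 19.4, 56.3 and 26.2 FPKM and fell 2.15-fold in Pok. In all 3 genes Pok control was the highest library and IR29 salt the lowest.

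Other core histones moved less. Os01g61920.1, Os05g38740.1, Os03g02780.1, Os07g36500.1 and Os05g39050.1, with levels from 55.3 to 164 FPKM, had salt log2 ratios from -0.84 to -0.50 over both genotypes. In each of them the order was Pok control, IR29 control, Pok salt and IR29 salt, from high to low. Os09g26340.1, Os03g06670.1 and Os12g25120.1 had ratios from -0.68 to -0.37 at levels from 12.6 to 80.3 FPKM. Os08g38780.1, at 15.6, 19.5, 23.5 and 27.3 FPKM, was slightly above its control in both genotypes, with log2 ratios of 0.31 and 0.20.

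Os04g49420.1 stood apart from every other histone. It was at 29.7 FPKM without and 12.5 FPKM with salt in IR29, and 29.6 and 0.568 FPKM in Pok. Both controls were equal, and the Pok salt library was far below the rest. It fell 2.38-fold in IR29 and 52.2-fold in Pok, and it was the only histone past 4-fold downwards in either genotype. With 1 library and no counts this low value cannot be told from a failed estimate.

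Os03g14669.1 was at 17.4 FPKM without and 7.97 FPKM with salt in IR29, and 17.0 and 18.1 FPKM in Pok. It fell 2.18-fold in IR29 and was level in Pok, so only the IR29 salt library was low. An unannotated splice variant at this locus had 4.18, 1.64, 9.09 and 4.73 FPKM and was lower with salt in both. Os05g38640.1 (chr5:22592575-22595482), at 68.0, 70.7, 88.1 and 98.4 FPKM, was the most abundant core histone that was not lower with salt in either genotype.

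Length of the locus went along with the direction, a feature that was looked at after the values were seen. Of the 36 histones 29 lie in an assembled locus with no other annotated gene. Of the 22 in loci of 0.595 to 1.38 kb 20 were lower with salt in both genotypes, none was higher in both and 2 went in opposite directions, Os06g04030.1 and Os03g51200.1. Of the 7 in loci of 2.72 to 18.5 kb 2 were lower in both, 3 were higher in both and 2 were opposite. The 3 higher in both were H3.3a Os04g37780.1, Os05g38640.1 and Os06g45640.1, by log2 ratios from 0.01 to 0.45. The median log2 ratio was -0.72 in IR29 and -0.76 in Pok for the short loci, and 0.06 and 0.01 for the long ones. Exon structure was not used here, and a long locus can hold introns or a stretch of neighbouring transcription, as in Os01g05900.1 with the longest locus, which fell in Pok.

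**Figure D4:**
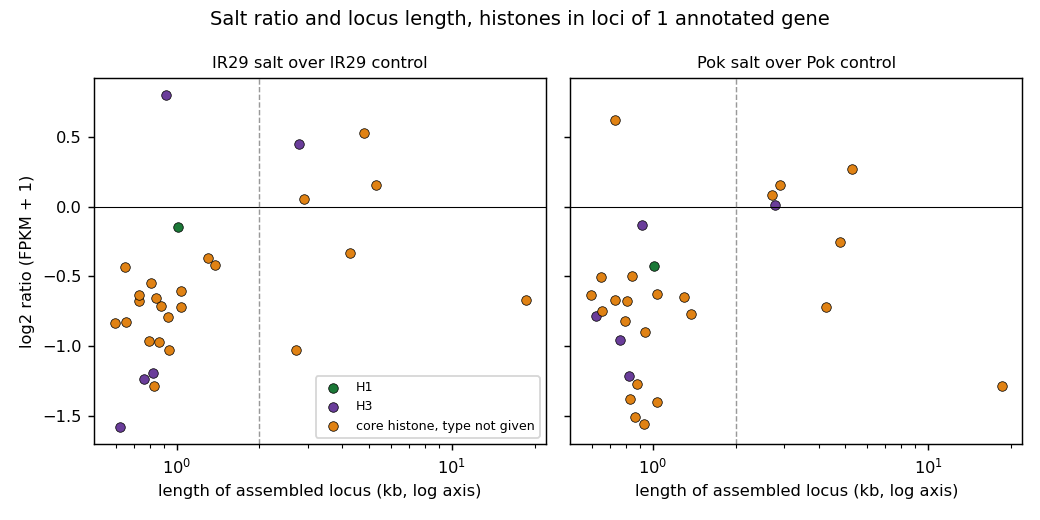
Log2 ratio of salt over control (FPKM plus 1) against the length of the assembled locus in kb on a log axis, for the 29 histones in loci with 1 annotated gene, in IR29 on the left and Pok on the right. Colours give the annotated type and the dashed line stands at 2 kb. Most short loci lie below 0 in both panels, and the 7 long loci lie on both sides of 0, from -1.03 to 0.53 in IR29 and from -1.29 to 0.27 in Pok.

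Between the genotypes without salt, the comparison of Pok control with IR29 control asked how they differ before the treatment. Of 36 histones considered 7 were at least 2-fold higher in Pok and none was lower at that size. The 7 are 19.4%, where 11.0% of all annotated transcripts were higher and 6.62% were lower. With the ratios centred on the median shift, 3 of the 7 remained past the limit, Os06g04020.1, Os03g17100.1 and Os01g31800.1. Any increase was seen for 32 of the 36, which is 88.9% against 75.1% of all, so much of this count is shared with the other transcripts. The median log2 ratio was 0.60 for the histones against 0.22 over all annotated transcripts, and 0.28 relative to the shift of the 7424 transcripts. Between the same libraries the summed level of the chlorophyll a/b binding proteins was 63.2% higher in Pok, beside 63.9% for the histones. Much of the former came from Os08g33820.1 alone, listed at 0 in IR29 control and at 769 FPKM in Pok control. The median log2 ratio of that list was 0.31, and 2 of 14 were at least 2-fold higher, so the near-equal sums are no sign of a shared shift. Of the root-expressed genes 4 of 7 were lower and 1 was higher. The part of these differences in the histone values was not tested.

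The core histones Os03g17100.1, Os01g31800.1 and Os08g38300.1 were 2.80-fold, 2.68-fold and 2.27-fold higher in Pok control. These are the genes whose decrease with salt in Pok was given above, and both comparisons use the same Pok control library, so the one is no support for the other. H1 Os06g04020.1 was 2.60-fold higher in Pok control. Os10g28230.1 was at 18.8 FPKM without and 13.8 FPKM with salt in IR29, and 44.5 and 25.7 FPKM in Pok, which is 2.37-fold higher without salt. Os07g36130.1, at 30.6, 24.1, 62.8 and 37.9 FPKM, was 2.05-fold higher. Os03g17084.1 was the weakest of the 7, at 2.87, 4.58, 6.81 and 5.56 FPKM, and lies 1.41 kb from Os03g17100.1 on chromosome 3.

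With salt, 3 of 36 histones were at least 2-fold higher in Pok than in IR29 and 1 was lower. These are 8.33% and 2.78%, where 9.87% of all annotated transcripts were higher and 6.76% lower, so the counts past the limit were not above those of other transcripts. With centring or upper-quartile scaling 1 was higher. Any increase was seen for 33 of the 36, which is 91.7% against 59.0% of all. The median was 0.47 against 0.08 over all annotated transcripts, so most histones were a little higher in Pok salt and few by much. The 3 were H3 Os11g05730.1, 2.05-fold, and the core histones Os12g34510.1, 2.04-fold, and Os03g14669.1, 2.27-fold, and the lower one was Os04g49420.1, 22.0-fold. Between the same libraries 12 of 14 chlorophyll a/b binding transcripts and 7 of 8 root-expressed genes were higher in Pok, and none was lower. Some of the root-expressed genes were picked by the study on these libraries, and the part of both lists in the histone values was not tested. None of the 7 histones that were higher in Pok without salt was past the limit with salt, an overlap that was not counted over all annotated transcripts.

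Genes that work with histones were read by lists written from annotation words. For the DNA replication list, of 20 considered in IR29 2 fell and 1 rose, and of 24 considered in Pok 7 fell and none rose. Its median log2 ratio over 38 transcripts was -0.28 in IR29 and -0.69 in Pok. PCNA (Os02g56130.1), the sliding clamp of DNA polymerase and the most abundant of the list, was at 28.6 FPKM without and 13.8 FPKM with salt in IR29. It was at 50.3 and 22.3 FPKM in Pok and fell in both. The 1 that rose in IR29, Os08g17294.1, was at 0 without and 7.38 FPKM with salt. Counting ratios of any size, 7 of the 20 were higher with salt in IR29 and 2 of the 24 in Pok. For the mitosis list 3 of 35 fell in IR29 and 12 of 45 in Pok, with none rising and medians of -0.23 and -0.48. Its transcripts at 5 FPKM or more are mostly tubulins, tubulin cofactors and kinesins, so it describes the cytoskeleton more than mitosis. Its mitotic checkpoint transcripts went both ways in IR29, with log2 ratios from -0.92 for Os04g40940.1 to 0.90 for Os03g33580.1. For cyclins and cyclin-dependent kinases 4 of 29 fell and 1 rose in IR29, and 4 of 33 fell in Pok with none rising, with medians of -0.12 and -0.39. Of all annotated transcripts 5.96% fell in IR29 and 5.61% in Pok, so the mitosis and replication counts in IR29 were close to those of other transcripts. All 3 lists had a median below 0 in both genotypes. Relative to the shift of the 7424 transcripts the medians in IR29 and Pok were -0.44 and -0.72 for replication, -0.43 and -0.51 for mitosis and -0.34 and -0.45 for cyclins and kinases, against -0.93 and -0.74 for the histones. Without salt 3 of 24 replication transcripts, 6 of 44 of the mitosis list and 7 of 35 cyclins and kinases were at least 2-fold higher in Pok than in IR29 and none was lower, where 11.0% of all annotated transcripts were higher, so the counts of the replication and mitosis lists were near those of other transcripts.

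Other chromatin proteins were read in the same way. The list of histone chaperones, nucleosome assembly and high mobility group proteins held mostly HMG1/2 transcripts among those considered, so it describes high mobility group proteins, which bend DNA, more than chaperones. Of it 1 of 13 fell and 2 rose in IR29, and 1 of 12 fell in Pok, with medians of 0.10 and -0.16. Of all annotated transcripts 19.1% rose and 5.96% fell in IR29, so the IR29 counts of this list were close to those of other transcripts. Those that rose in IR29 were SSRP1 (Os05g08970.1), a subunit of the FACT complex, which moves nucleosomes out of the way of polymerases, and the HMG1/2 transcript Os09g37910.4. SSRP1 was at 3.55, 7.21, 4.77 and 5.54 FPKM, and Os09g37910.4 was at 4.46, 11.5, 8.75 and 14.0 FPKM. The other FACT subunit, SPT16 (Os08g31240.1), was at 7.62, 15.0, 10.2 and 9.96 FPKM and was short of the limit in both genotypes. For enzymes that modify histones 1 of 22 fell and 2 rose in IR29, and 4 of 22 fell and none rose in Pok, with medians of 0.34 and -0.02. In Pok 5.61% of all annotated transcripts fell. Of those 4 enzyme transcripts, Os05g41172.1, Os05g41172.2 and Os04g45990.1 were listed at 0 in Pok salt, and Os05g41172.1 and Os05g41172.2 belong to the same locus.

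**Figure D5:**
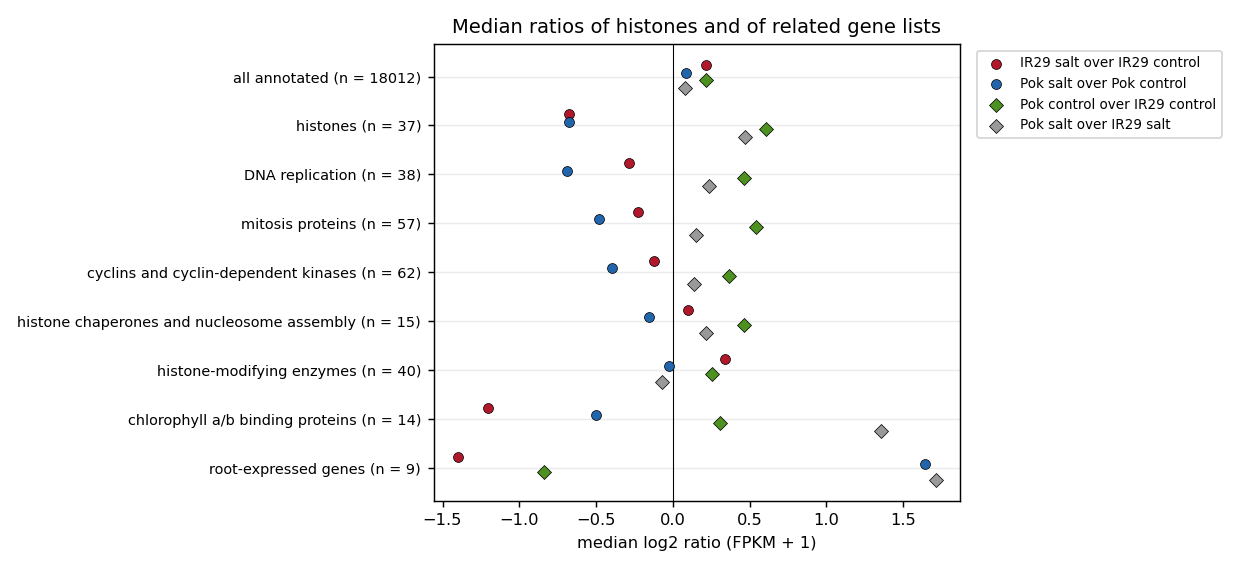
Median log2 ratio (FPKM plus 1) of the histones, of related gene lists and of all annotated transcripts in the 4 comparisons, with the number of transcripts at a mean of at least 1 FPKM beside each name. Circles are salt over control and diamonds are Pok over IR29, each from 1 library per condition. Histones are at -0.67 in both salt comparisons, where all annotated transcripts are at 0.22 and 0.08.

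Histone texts were also borne by assembled transcripts outside the annotated forms. Those that lie antisense have the text by overlap with a histone gene on the other strand. Of 20 such transcripts with a histone text 14 reached 5 FPKM, of which 9 were splice variants, 4 lay antisense and 1 overlapped a gene in another way. The sums by type above leave them out. The largest, antisense to H3.3a Os04g37780.1, was at 1082, 1034, 1345 and 1251 FPKM, above the summed annotated H3 in each library, and hardly differed with salt. Whether any of its reads come from histone mRNA cannot be told here, so it is not counted as H3. Another, antisense to H3 Os03g27310.1, was at 96.5, 128, 130 and 109 FPKM. At Os07g36140.1 the splice variants were at 32.0, 42.3, 52.5 and 23.4 FPKM, at 34.8, 20.8, 26.5 and 32.3 FPKM and at 69.0, 55.7, 56.4 and 79.9 FPKM, with no shared order of the libraries. The variant of Os07g36130.1 was at 37.9, 37.0, 52.5 and 53.0 FPKM and hardly differed with salt, where the annotated form had log2 ratios of -0.33 and -0.72. The variant of Os03g17084.1, at 23.1, 22.0, 33.1 and 30.5 FPKM, was likewise nearly level with salt and above the annotated form in each library.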

How the data were processed

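Polysomal RNA of 4 libraries was used, 1 for each genotype and treatment. The FPKM values were deposited by the authors, who per the study's methods aligned reads with TopHat to rice MSU v6.1, assembled transcripts with Cufflinks, used Cuffmerge and Cuffcompare to merge and class the assemblies, and ran Cuffdiff. Versions are not given in the sources used here. The table holds 89715 assembled transcripts, no counts and no p-values. Annotated transcripts (class "=") were used, with 1 added to the 0-based locus starts of Cufflinks.

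Ratios of FPKM were computed with Python 3.11.15 and pandas 2.3.3, under the size limits of the study's methods (at least 5 FPKM and 2-fold) without its FDR, which needs counts. A list's median is over transcripts with a mean of at least 1 FPKM. The steps were tested on simulated data. No tests were made.

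The histones and lists were chosen with earlier results of these data known. Named are the histones past the limits in any comparison and the 3 of highest mean in each type. Of H2A, both members are described by their sum, since they stayed under 1 FPKM. Other histones, splice variants and members of related lists were named after their values were seen. The word for centromere proteins in the mitosis list was narrowed later, since it also matched retrotransposons. Promoter motifs and protein sequences were not used here.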

Additional observations from a re-analysis of the deposited data

Results flagged for a closer look

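For 5 histones salt over control went in opposite directions in the genotypes, as log2 ratios of FPKM plus 1, each from 1 library per condition, and the difference was not tested. H3 Os06g04030.1 was at 0.80 in IR29 and -0.13 in Pok. Os03g14669.1 was at -1.03 in IR29 and 0.08 in Pok. Os03g51200.1, at 9.07 FPKM without and 5.51 FPKM with salt in IR29 and at 6.16 and 10.0 FPKM in Pok, was at -0.63 and 0.62. Os03g17084.1 was at 0.53 in IR29 and -0.25 in Pok. Os02g07450.2, which did not exceed 5.54 FPKM, was at -0.39 in IR29 and 0.41 in Pok.

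Outside the annotated transcripts, the splice variant of H1 Os06g04020.1 had 12.4 FPKM in IR29 salt against 1.47 in IR29 control, and 21.5 FPKM in Pok salt against 5.53 in Pok control.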

How the results depend on the processing

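No paired analysis was possible because each condition has 1 library, and for the same reason no library could be left out. Of 120 values recomputed under other settings 84 stayed within the limits set and 36 moved, and no median changed sign. The balance of counts turned with a 4-fold limit for salt in IR29 and for Pok over IR29 with salt, where 1 was lower. With a 4-fold limit 0 histones fell and 1 rose in IR29, 1 fell and 0 rose in Pok, and 0 were higher in Pok without salt and 0 with salt. With a 1.5-fold limit 21 fell and 2 rose in IR29, 23 fell and 2 rose in Pok, 21 were higher and 1 lower in Pok without salt, and 15 higher with salt. With a minimum of 1 FPKM 3 rose in Pok, and 5 were higher in Pok with salt. Centring on the median ratio gave 14 fallen in IR29, 3 higher in Pok without salt and 1 with salt. Its medians were -0.93 for salt in IR29, 0.28 for Pok over IR29 without salt and 0.35 with salt, and its sums were 1258 FPKM in IR29 with salt and 2930 and 1562 FPKM in Pok without and with it. Upper-quartile scaling gave 17 fallen in IR29, 0 risen in Pok and 1 higher in Pok with salt, medians of -0.97 and -0.90 for salt in IR29 and Pok and 0.45 for Pok control over IR29 control, and sums of 2596 FPKM in IR29 control and 1833 in Pok salt. Over histones above 0 in either library the median of Pok control over IR29 control was 0.49. With annotated transcripts scaled to the same sum the medians were -0.81 for salt in IR29, 0.42 for Pok over IR29 without salt and 0.34 with salt, where 1 was higher. The 1.5-fold limit, the scaling to the same sum and the sum of annotated forms and splice variants, under which no value moved, were added after seeing the data.

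The counts of histones past the limit thus depend on the limit and on the scaling, and the cause was not tested. Without counts the precision of a single value is unknown, and values of low transcripts and of near-identical copies are the least certain.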
